A study of Xenopus laevis with 111 samples.

Results

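The genes described here are 302 of 45099 gene models of *X. laevis* whose transcripts were higher in transected than in sham spinal cord from 11 to 15 h after surgery onwards. They were chosen by their measured difference: log2(CPM + 1), with CPM the expected count scaled to a library total of 1 M, was subtracted between transected and sham libraries of the same series and hour, and averaged over 5 windows of hours. This mean difference had to be under 0.6 in the windows of 0.5 to 2 h, 3 to 6 h and 7 to 10 h. It had to reach 0.6 in the later windows, which were 11 to 15 h and 16 to 21 h. Values of that contrast are therefore a description of how the genes were chosen, and no test of it is given for these genes. All 302 genes passed the low-count filter of the time series, which kept 32328 genes, and 300 passed that of the Torin1 libraries, which kept 27649.

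After a complete cut, the spinal cord of a *X. laevis* tadpole before metamorphosis regrows and swimming returns. As background, the first day covers the death of damaged cells, the breakdown of cut axons, the arrival of immune cells and the activation of the progenitor cells that line the central canal. Transcripts that become higher only late in that day follow the immediate early genes and the first inflammatory genes in time. Torin1 inhibits the kinase mTOR, which couples nutrients and growth signals to protein synthesis and cell growth.

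All libraries were labelled as tadpoles of NF stage 50, and each library came from pooled cords, 8 to 10 mm long, taken caudal to the injury level. In the time series, 36 libraries were from transected animals and 36 from sham animals, in which only dorsal skin and muscle were cut. They were sampled between 0.5 and 21 h in 6 series of 10 (S1, S2) or 12 (S3 to S6) cords per pool, with 8 libraries of 0 h shared by both conditions. A further 25 libraries were from uninjured animals in series S7 (0 to 13 h) and S8 (0 h and 12 to 21 h), 12 cords per pool. In the Torin1 experiment all animals were transected and kept in 1 µM Torin1 or 0.05% DMSO for the first 24 h only. It gave 1 library of 15 cords per treatment at 1, 2 and 4 days after transection, without a sham control.

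Library totals were 9.96 to 76.6 M expected counts in the time series, with a median of 18.3 M, and 21.2 to 32.5 M in the Torin1 experiment. The gene models carried identifiers that matched none of the 44456 genes of the RefSeq table used here, so the genes have no symbols, known roles or sequences in this account and the tissue could not be checked against marker genes. The rule left out the 12 h pair of S5. The median transected minus sham difference over all genes was 0.16 in that pair. It was between -0.05 and 0.05 in the other pairs at 11 to 15 h.

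After the first window, the members' median difference between transected and sham cords was already above 0 in the windows before 11 h. The rule capped each gene's difference in all windows before 11 h. From the first window to the last, the median over the 302 genes was -0.01, 0.22, 0.42, 0.70 and 1.03, while the median over all 32328 genes stayed between -0.03 and 0.03. The number of the 302 genes above 0 was 144, 279 and 300 in the first 3 windows, in that order. The name of a group induced from 11 to 15 h refers to the threshold of 0.6 and not to the first difference from sham. Per pair, the medians ran from -0.16 to 0.11 at 0.5 to 2 h, from 0.40 to 1.06 at 11 to 15 h, and from 0.93 to 1.18 at 16 to 21 h. In bulk tissue, a change in the number of cells of a type and a change in RNA per cell cannot be told apart.

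Among the genes, 217 had a difference that grew from each of the 5 windows to the next, and 278 had a larger difference at 16 to 21 h than at 11 to 15 h. At 16 to 21 h, 166 genes reached a difference of 1, which is a doubling of CPM + 1, and 6 reached 2. At 11 to 15 h only 21 genes reached 1, and the largest value was 1.30. At 11 to 15 h, 77 of the 302 lay within 0.05 above 0.6, and 94 genes that failed no other condition lay within 0.05 below it. The nearest values on either side were 0.6006 and 0.5998 at 11 to 15 h, and 0.6005 and 0.5978 at 16 to 21 h. At 7 to 10 h, where the genes had to lie below the threshold, the nearest values were 0.59995 inside and 0.60004 outside.

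Taken per pair, the median of the 302 genes in the same order of windows was 0.01 ± 0.08 (SD, n = 10), 0.22 ± 0.11 (n = 5), 0.41 ± 0.20 (n = 5), 0.73 ± 0.22 (n = 6) and 1.05 ± 0.10 (n = 9). Transected exceeded sham in every pair for 287 of the 302 genes at 11 to 15 h, where 11.6% of all genes did so, and for all 302 at 16 to 21 h, where 18.2% did. The ranges of the transected and sham libraries did not overlap for 123 genes at 11 to 15 h (2.16% of all genes) and for 278 at 16 to 21 h (8.86% of all genes). The genes were chosen on these same libraries, so nothing is read from these counts.

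**Figure D1:**
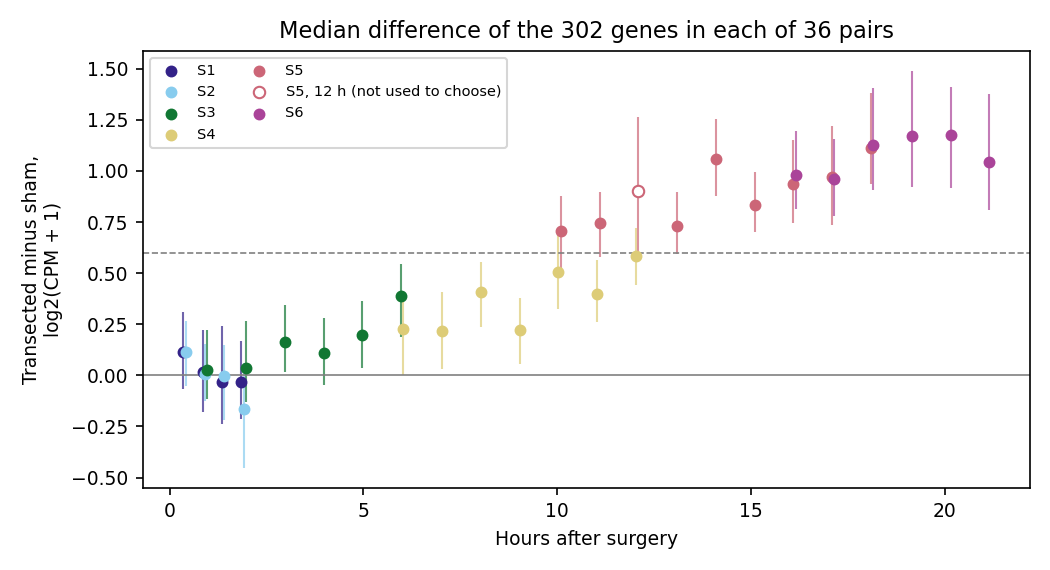
Difference between transected and sham libraries, as log2(CPM + 1), against hours after surgery. Points give the median over the 302 genes in each of the 36 pairs, bars the quartiles over genes, colours the series, and the dashed line the threshold of 0.6. The pair medians go from 0.01 ± 0.08 at 0.5 to 2 h to 1.05 ± 0.10 at 16 to 21 h, S4 lies below S5 at 10, 11 and 12 h, and the open point is the 12 h pair of S5 that was not used to choose the genes.

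The size of the difference varied with the series at the hours where S4 and S5 overlapped. The 10 h pair of S4 had a median of 0.51 and that of S5 0.70, and the 11 h pairs had 0.40 and 0.75. At 11 to 15 h the S4 pairs alone gave a median of 0.49, with 80 of the 302 genes at 0.6 or above, and the S5 pairs 0.82, with 298. At 16 to 21 h the series were closer, with 1.01 in S5 and 1.05 in S6. At 16, 17 and 18 h, where both were sampled, the pair medians were 0.93, 0.97 and 1.11 in S5. In S6 they were 0.98, 0.96 and 1.13. The crossing of the threshold at 11 to 15 h thus coincided with the change from S4 to S5, which overlapped only at 10, 11 and 12 h. At 10 h, in the window before, 187 of the 302 genes were at 0.6 or above in S5 and 117 in S4. Outside the overlap, hour and batch of animals cannot be told apart there, and their parts were not tested.

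The 12 h pair of S5 was the only transected and sham pair that the rule did not use. In it the 302 genes had a median difference of 0.90, and 284 (94%) were above 0, against 62.7% of all genes. A difference of 0.6 was reached by 215 (71.2%), which 20.9% of all genes did. The median of all genes was itself shifted by 0.16 in this pair. With TMM normalization factors, that shift fell to 0.03 and the median of the 302 genes to 0.73. On that scale 173 (57.3%) reached 0.6, against 13.8% of all genes. This is 1 pair without a replicate, and its series supplied 4 of the 6 pairs at 11 to 15 h. Its transected library was taken as after, and its sham library as before, a step between libraries of S5. Across that step the 302 genes changed by a median of 0.24 in transected and 0.08 in sham libraries, and all genes by 0.04 in each. The pair thus compares libraries on either side of the step, whose part in its values was not tested.

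Transected and sham libraries were also each set against the 0 h library of their own series. In S6 at 16 to 21 h the 302 genes had a median change of 1.11 in the transected libraries, with 302 above 0 and 290 at 0.6 or above. The sham libraries of S6 had a median change of 0.02, with 162 genes above 0. In S5 at 16 to 18 h the corresponding medians were 1.22 and 0.16, and in S4 at 11 and 12 h they were 0.50 and 0.02. The medians of all genes were between -0.01 and 0.10 in these comparisons, and the share of all genes above 0 was not counted. Both conditions subtract the same 0 h library, so it cancels from the gap between them. That gap is the transected minus sham difference of the libraries that chose the genes, and nothing is read from it.

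Most of the 302 genes were moderately expressed. Their mean CPM in transected cords at 16 to 21 h had a median of 17.0 and ran from 0.84 to 2243, with 201 genes at 10 CPM or above and 24 below 2. At 0 h their mean CPM had a median of 9.63, close to the 8.30 of all genes. Their effective length, relative to the median gene, had a median of 1.05. Summed over the 302 genes, the share of all expected counts was 1.07 to 1.37% in the 9 transected libraries of 16 to 21 h and 0.46 to 0.67% in the 9 sham libraries, and 1 gene made up 18.5% of the transected sum.

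The level of these genes at 0 h differed between series. In the 0 h libraries of S1 the median CPM over the 302 genes was 5.33 and 5.58, and in S2, from the same fertilization, it was 12.1 and 13.9. It was 10.9 in S3, 8.44 in S4, 6.47 in S5 and 6.90 in S6, and it reached 15.9 and 15.2 at 0 h of the uninjured series S7 and S8. The SD of log2(CPM + 1) over these 10 libraries had a median of 0.57 for the 302 genes and 0.32 for all genes, and 142 of the 302 (47%) lay among the most variable 10% of all genes. Across 300 of the genes, this SD and the difference at 16 to 21 h had a Pearson correlation of 0.74 (Spearman 0.67). That difference chose the genes, and the correlation was not taken over all genes. The genes share libraries and are not independent replicates. The part of this difference between series in the results was not tested.

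In uninjured cords the same genes were lower at later hours of sampling. The median change from the 0 h library of the same series was between -0.45 and 0.01 from 1 to 10 h in S7 (-0.35 at 1 h and 0.01 at 2 h), and between -0.60 and -0.33 from 11 to 13 h. In S8 it was -0.18 at 12 h, where S7 had -0.60, and between -0.60 and -0.38 from 13 to 21 h. Over all genes the median at 12 h was itself -0.23 in S7 and -0.15 in S8. At the other hours it was between -0.08 and 0.09. At 21 h, 50 of the 302 genes were above 0. The change was thus not steady from hour to hour, and the series differed at 12 h. The median CPM over the 302 genes was 15.2 to 15.9 at 0 h (n = 2) and 10.2 to 11.4 at 16 to 21 h (n = 6), without overlap. At 16 to 21 h the uninjured libraries therefore lay above the sham libraries (6.5 to 8.96, n = 9) and below the transected libraries (14.7 to 19.4, n = 9), and at 0 h they were as high as transected cords were at 16 to 21 h. The uninjured libraries formed series of their own, so these levels are set side by side and were not tested.

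edgeR with series as a block, applied to the 25 uninjured libraries, called 56 of the 302 genes lower and 4 higher at 11 to 15 h than at 0 to 2 h (adjusted p under 0.05), where 2.03% of all genes were lower and 2% higher. At 16 to 21 h it called 100 lower (33.1%) and 1 higher, where 1.78% of all genes were lower and 1.08% higher. The median log2 fold change of the 302 genes was -0.34 and -0.56 in these windows. Only 4 libraries formed the 0 to 2 h baseline, 3 of them from S7, and all 6 libraries of 16 to 21 h were from S8. With 0 h alone as the baseline the count at 11 to 15 h fell from 60 to 19, and at 16 to 21 h it was 87 in place of 101. Without the series as a block the latter was 166.

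**Figure D2:**
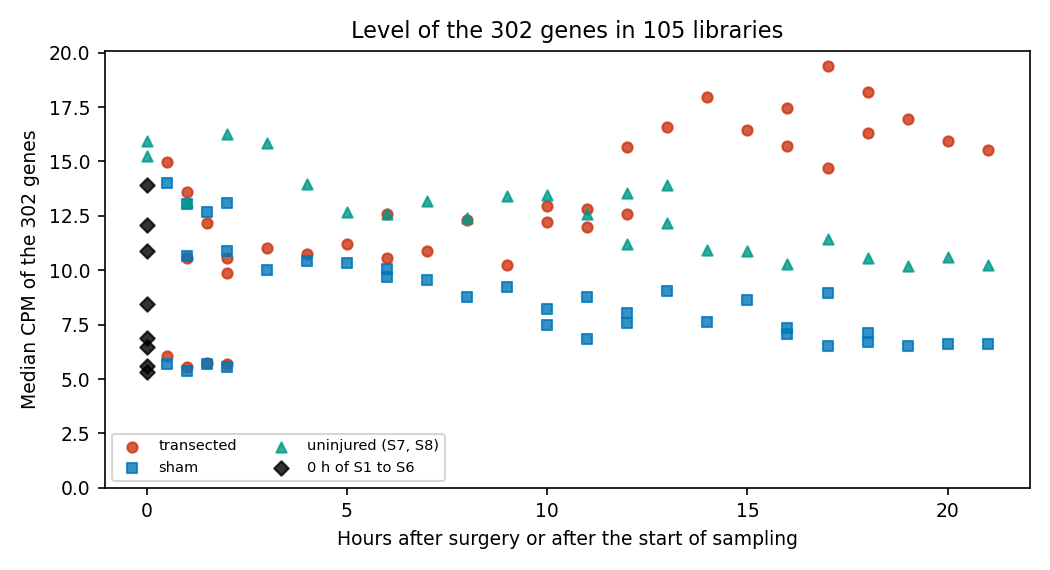
Median CPM over the 302 genes in each of the 105 libraries of the time series against hours after surgery, or after the start of sampling for uninjured cords. At 16 to 21 h the 9 transected libraries (14.7 to 19.4) lie above the 6 uninjured (10.2 to 11.4) and the 9 sham libraries (6.5 to 8.96), and the 0 h libraries of S1 to S6 spread from 5.33 to 13.9.

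The genes with the largest difference at 16 to 21 h showed each of these features. Xelaev18044707m.g, which had the largest, lay at 8.88 to 34.8 CPM in transected libraries (median 17.7, n = 9) and at 1.06 to 5.22 CPM in sham libraries (median 1.68, n = 9), without overlap, a difference of 2.65 ± 0.53 (SD over 9 pairs) on the log2(CPM + 1) scale. Its level at 0 h was 0.51 and 0.58 CPM in S1, 33.3 and 45.7 in S2, 32.8 in S3, 11.7 in S4, 4.29 in S5, 1.94 in S6, and 61.9 and 47.4 in the uninjured series. The series thus differed more from each other at 0 h than transected and sham cords did at 16 to 21 h. Within S6, against 1.94 CPM at 0 h, the transected libraries ran from 8.88 to 19.3 CPM and the sham libraries from 1.06 to 3.10.

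At 11 to 15 h, Xelaev18044707m.g lay at 13.5 to 20.0 CPM in transected libraries (median 16.9, n = 6) and at 3.61 to 11.6 in sham libraries (median 8.99, n = 6), without overlap. The 12 h pair of S5, left out of these ranges, had 11.7 CPM in the transected and 10.95 CPM in the sham library. From this window to the next the transected median went from 16.9 to 17.7 CPM and the sham median from 8.99 to 1.68 CPM. S6 supplied 6 of the 9 pairs of the later window. Within S5, the transected library had 13.5 CPM at 11 h and 32.7 CPM at 18 h, and the sham library 9.11 and 2.71 CPM. In uninjured cords the gene ran from 10.0 to 61.9 CPM (median 24.9, n = 25) and fell by 1.56 on the log2 scale between 0 to 2 h and 16 to 21 h (edgeR, adjusted p = 0.0121).

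Xelaev18023987m.g had the next largest difference at 16 to 21 h, 2.32 ± 0.55 (SD over 9 pairs). It lay at 18.8 to 60.2 CPM in transected libraries (median 36, n = 9) and at 3.69 to 13.3 CPM in sham libraries (median 5.45, n = 9), again without overlap. Its 0 h levels in S1 to S6 ran from 2.47 to 63.3 CPM. In uninjured cords it fell by 1.57 on the log2 scale by 16 to 21 h (edgeR, adjusted p = 0.00328).

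**Figure D3:**
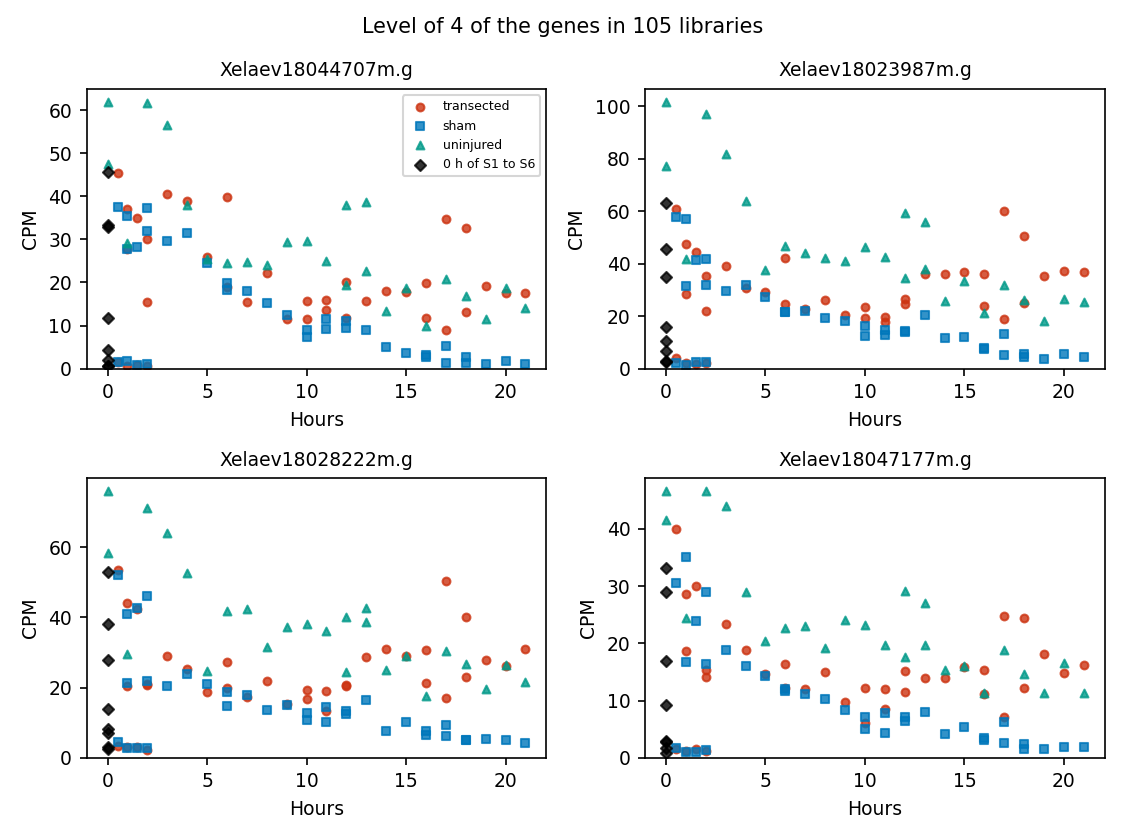
CPM of 4 of the 302 gene models in the 105 libraries of the time series against hours, 1 panel per gene. Circles are transected, squares sham, triangles uninjured and diamonds 0 h libraries. In each panel the transected and sham libraries of 16 to 21 h do not overlap, and the 0 h points of S1 to S6 spread over most of the axis. The highest uninjured library in each panel is that of 0 h in S7 (61.9 CPM for Xelaev18044707m.g). The uninjured library of 1 h lies below some of later hours.

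The Torin1 experiment used none of the libraries that chose the genes. On day 1, at the end of the 24 h of treatment, the 300 genes that could be tested were lower with Torin1 than with DMSO by a median of 0.59 on the log2(CPM + 1) scale, where the median of all 27649 genes was -0.02. They were lower in 268 cases (89.3%), against 52.6% of all genes, and at least 2-fold lower in 75 (25%), against 1.56% of all genes. At least 2-fold higher were 3 (1%), close to the 0.886% of all genes. The median CPM of all 302 genes was 16.1 in the DMSO library and 9.87 in the Torin1 library.

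On days 2 and 4, after the drug had been removed, the sign was the opposite. The median Torin1 minus DMSO difference was 0.42 on day 2, where 265 genes (88.3%) were higher with Torin1 against 61% of all genes, and 0.23 on day 4, where 266 (88.7%) were higher against 50.2% of all genes. On day 2, 17 genes were at least 2-fold higher (0.268% of all genes were) and 0 were at least 2-fold lower (0.387% of all genes were). On day 4, 1 gene was at least 2-fold higher (0.0868% of all genes were). With TMM factors the medians of days 1, 2 and 4 were -0.56, 0.37 and 0.23. Lower on day 1 and higher on both days 2 and 4 were 225 of the 300 (75%) and 22.1% of all genes.

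The median CPM of the 302 genes was 16.1 on day 1, 11.5 on day 2 and 10.7 on day 4 with DMSO, and it was 9.87, 16.0 and 13.3 on the same days with Torin1. Against day 1 the genes changed by a median of -0.44 and -0.51 on days 2 and 4 with DMSO, where only 34 and 14 genes were above 0. The medians of all genes were -0.17 and -0.08. With Torin1 the medians were 0.56 and 0.33, with 260 and 232 genes above 0, and those of all genes were -0.08 and -0.04. The share of all genes above 0 was not counted. In DMSO-treated cords these genes thus had their highest level on day 1, and in Torin1-treated cords on day 2. Each of these values is from 1 library.

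A Torin1 effect common to the 3 days, with day as a block, was called for 0 of the 300 genes by edgeR, and for 0% of all genes. At an unadjusted p under 0.05, 4 were higher and 5 lower, and DESeq2 called 1. This test averages the opposite signs of day 1 and the later days: without day 1 it called 20 genes, all higher with Torin1. The share of all genes called without day 1, or by DESeq2, was not counted. Between days 4 and 1 over both treatments edgeR also called 0 of the 300 (0.00362% of all genes higher, 0% lower), with 3 higher and 20 lower at an unadjusted p under 0.05 and 2 called by DESeq2.

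A separate effect for day 1 and for days 2 and 4 was therefore fitted in edgeR, a test added after these values were seen. On day 1 it called 139 of the 300 genes lower (46.3%) and 5 higher at an adjusted p under 0.05, where 6.43% of all genes were lower and 5.79% higher. On days 2 and 4 it called 41 higher and 0 lower, with 4 lower at an unadjusted p under 0.05, where 0.477% of all genes were higher and 0.506% lower. With DESeq2 size factors in edgeR, these counts were 137 and 5 on day 1 and 33 and 0 on the later days. The difference between the effects was more negative on day 1 for 168 genes (56%) and less negative for 2, against 6.89% and 5.66% of all genes, with a median of -0.94. This fit has 5 coefficients for 6 libraries and so 1 residual degree of freedom, and its p-values, those of single genes below included, rest largely on spread shared across genes. The day 1 pair has no replicate, the gene's own spread comes from how days 2 and 4 differ, and day 1 is assumed to vary like them.

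**Figure D4:**
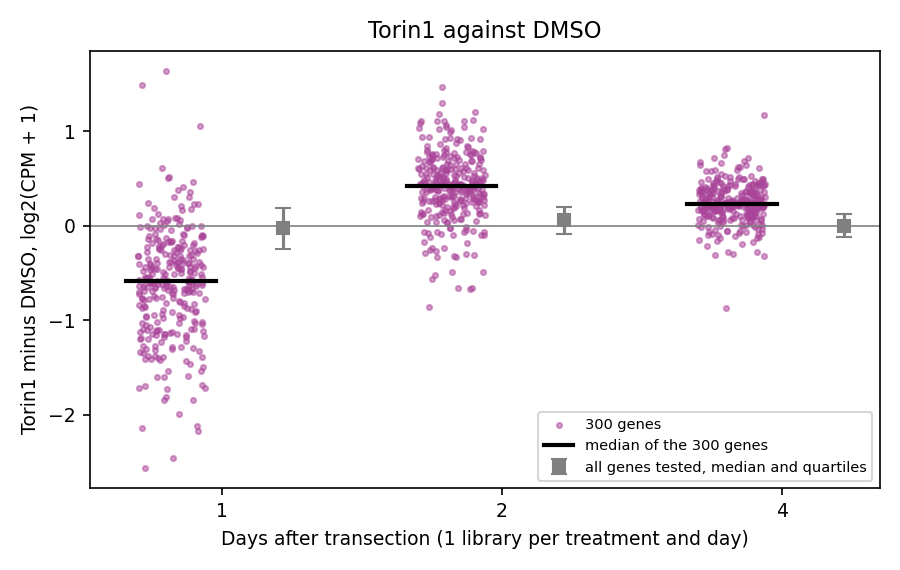
Torin1 minus DMSO, as log2(CPM + 1), on days 1, 2 and 4 after transection, from 1 library per treatment and day. Each small point is 1 of the 300 genes, black lines are their medians (-0.59, 0.42 and 0.23), and grey squares with bars are the medians and quartiles of all 27649 genes.

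Groups of genes with a larger difference after transection had more negative median Torin1 differences on day 1 and more positive ones on day 2. Divided into 4 equal groups by the difference at 16 to 21 h, the 300 genes had median Torin1 minus DMSO values on day 1 of -0.26, -0.49, -0.62 and -1.14. In these groups 3, 7, 18 and 47 of 75 genes were at least 2-fold lower, against 1.56% of all genes. The medians on day 2 were 0.16, 0.38, 0.46 and 0.75. The groups rest on a difference that chose the genes, and no such division was made over all genes. Whether this order is particular to the 300 genes was therefore not tested. Adding 1 to CPM shrinks the differences of genes with low CPM in both measures, and the part of expression level was not tested. The decline in uninjured cords followed the same order: the 302 genes, divided likewise, had medians of -0.23, -0.45, -0.65 and -1.0 at 16 to 21 h. In these groups 5, 12, 26 and 57 genes were called lower, against 1.78% of all genes.

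Of the 300 genes, 100 were called lower in uninjured cords by 16 to 21 h and 168 had a Torin1 difference more negative on day 1 than later. These lists shared 95 genes, which is 95% of the first and 56.5% of the second. Over the 27622 genes in both fits, 574 and 1905 genes were called and 356 shared, which is 62% of the first and 18.7% of the second. Across the 300 genes, the change in uninjured cords and the Torin1 difference on day 1 had a Pearson correlation of 0.63 (Spearman 0.71), and the SD at 0 h and the Torin1 difference on day 1 had one of -0.81 (Spearman -0.80). The second list held a far larger share of the 300 genes than of all genes, so the 95% and the 62% cannot be compared directly. No library is common to the time series and the Torin1 experiment. These relations are across genes, which are not independent replicates, and each treatment and day of the Torin1 experiment is 1 library. The correlations were not taken over all genes.

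Xelaev18044707m.g had 47.8 CPM with DMSO and 7.27 CPM with Torin1 on day 1, a fall by 2.67 on the log2 scale (edgeR, day 1 effect, adjusted p = 2.66e-05). On day 2 it had 16.1 CPM with DMSO and 31.7 CPM with Torin1, and on day 4 15.9 and 25 CPM. Xelaev18023987m.g went from 72.8 CPM with DMSO to 12.5 CPM with Torin1 on day 1 (adjusted p = 0.000112), and it was higher with Torin1 on day 2 (27.2 and 63.9 CPM) and day 4 (30.3 and 41.5 CPM). These 2 genes had the lowest Torin1 differences of day 1 as well as the largest differences at 16 to 21 h after transection. Not every gene with a large difference went this way. Xelaev18007618m.g, with a difference of 2.01 at 16 to 21 h and the largest at 11 to 15 h (1.30), was higher with Torin1 on day 1. Its Torin1 minus DMSO differences on the log2(CPM + 1) scale were 1.48 on day 1, 0.53 on day 2 and -0.30 on day 4.

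The next lowest on day 1 were Xelaev18028222m.g, with 56.1 CPM in DMSO and 11.7 in Torin1 (log2 fold change -2.22, adjusted p = 0.000112), and Xelaev18047177m.g, with 35 and 7.18 CPM (log2 fold change -2.24, adjusted p = 0.000176), both from the edgeR fit of day 1. Xelaev18028222m.g then had 20.7 CPM with DMSO and 43.3 CPM with Torin1 on day 2, and 21.5 and 29 CPM on day 4. Xelaev18047177m.g had 13.1 and 27.4 CPM on day 2, and 14.8 and 18.9 CPM on day 4. Both were also among the more changed of the 302 genes after transection, with differences of 2.08 ± 0.48 and 2.18 ± 0.62 (SD over 9 pairs) at 16 to 21 h, and both fell in uninjured cords by then (log2 fold change -1.28, adjusted p = 0.0128, and -1.48, adjusted p = 0.00384, edgeR).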

How the data were processed

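The authors aligned reads with Bowtie (Bowtie2 for Torin1 libraries) against version v9.1 of the transcriptome and quantified them with RSEM, and CASAVA 1.7 is named in the submitters' processing notes. The authors deposited, for each of 45099 gene models, an expected count (RSEM's estimate of reads, not normalized) and a TPM, scaled to library total and transcript length. RSEM divides reads shared by similar copies, so homeologs are uncertain.

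CPM was computed from expected counts over the library total. For tests, expected counts were rounded and fitted in R 4.3.3 with edgeR 4.0.16 (TMM, quasi-likelihood, Benjamini-Hochberg adjusted p under 0.05), and DESeq2 1.42.0 was an alternative. The low-count filter asked for 5 counts at 4 hours of a condition (Torin1: 10 counts in 2 libraries). The fits of transected against sham, of uninjured hours and of the Torin1 effect common to the days were run on simulated data with known changes. Those simulated counts held no differences between series. The fit with a separate effect for day 1 was not run on simulated data. Precision rests on the spread between libraries and on their number, as well as on library totals (9.96 to 76.6 M expected counts). The coefficient of variation that edgeR estimated across genes was 0.11 for transected against sham, 0.16 for Torin1 and 0.21 for uninjured libraries.

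The pair of a series and hour was a block, since sham and transected animals came from the same batches in parallel. Deviations from group means correlated by 0.42 on average within the 36 pairs, from -0.31 to 0.78, and 31 were over 0.1. Torin1 and DMSO libraries of 1 day were paired likewise (mean correlation 0.25 over 3 days, from 0.05 to 0.40). Hours served as replicates, so p-values leave out how batches of animals vary.

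The 302 genes and all lists were chosen with earlier results of these data known. Lists of genes by function, cell type markers and promoter motifs could not be applied without symbols. The identifiers named are the 2 with the largest difference at 16 to 21 h and the next 2 with the lowest Torin1 difference on day 1. Xelaev18007618m.g is named besides, for its difference at 11 to 15 h and the opposite sign of its Torin1 difference on day 1. The alternatives were other normalizations, filters, pseudocounts, thresholds, tools, blocks and samples left out.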

Additional observations from a re-analysis of the deposited data

Results flagged for a closer look

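Of 48 groups of 4 to 10 libraries or pairs that were examined, 7 held a value far from the others, and chance flags about 1 in 20. The 2 h pair of S2 had a median difference of -0.16 over the 302 genes, where the next lowest of the 10 pairs at 0.5 to 2 h had -0.03. Among the 9 sham libraries of 16 to 21 h, that of 17 h in S5 had the highest median CPM of the 302 genes, 8.96, against 7.36 for the next. The same library was highest for Xelaev18044707m.g (5.22 CPM, next 3.10), Xelaev18023987m.g (13.3 CPM, next 7.97) and Xelaev18047177m.g (6.18 CPM, next 3.53). Among the 7 sham libraries of 11 to 15 h, that of 13 h in S5 was highest for Xelaev18023987m.g (20.4 CPM, next 14.7). Among the 6 uninjured libraries of 16 to 21 h, that of 17 h had a median CPM of 11.4, next 10.6.

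The Torin1 minus DMSO difference had opposite signs on day 1 (median -0.59) and on days 2 and 4 (medians 0.42 and 0.23). In edgeR, the day 1 effect minus the later effect had a median of -0.94 over the 300 genes and 0.02 over all genes. That fit was added after the opposite signs were seen, and it has 1 residual degree of freedom.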

How the results depend on the processing

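The number of genes the rule chose was 302. It was 342 with a pseudocount of 0.5 and 217 with 2, 280 with TMM factors, 266 with TPM, 442 and 203 with thresholds of 0.5 and 0.7, and 334 with the 12 h pair of S5, which shared 258, 186, 267, 193, 197, 148 and 269 genes with the 302. With only S5 pairs at 11 to 21 h it was 491, which held 287 of the 302, and with no S5 pairs 97, which held 78. Leaving out each late pair gave 208 (without the 14 h pair of S5) to 403 (without the 11 h pair of S4). Over all genes, 6327 differed between transected and sham cords at 11 to 15 h and 13328 at 16 to 21 h in edgeR with the pair as a block. With no replicate block these were 1590 and 7370, with a 2-fold minimum 629 and 1198, and without S5 417 at 11 to 15 h. DESeq2 size factors, no filter, the 12 h pair of S5 and DESeq2 left both within 1.5 times. Of the 300 genes, the Torin1 test over 3 days called 0, DESeq2 1, and leaving out each day 0 to 20. Dropping the day as a replicate block left 0. An exact test of each day with a coefficient of variation of 0.2, p at most 0.01 and a 2-fold minimum called 77 on day 1, 14 on day 2 and 3 on day 4. Day 4 against day 1 called 0 and with DESeq2 2. In uninjured cords the counts were 60 and 101, and 19 at 11 to 15 h with 0 h alone as baseline and 166 at 16 to 21 h without the series block. Under the alternative settings of the Torin1, day and uninjured tests, the share of all genes called was not counted. The causes were not tested. The threshold separates genes that differ by less than the spread between pairs, with a median SD per gene of 0.30 at 11 to 15 h. The 24 genes below 2 CPM in transected cords at 16 to 21 h rest on the fewest counts.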
